A study of Arabidopsis thaliana with 12 samples.

Results

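The mutants gun5-1 and gun4-1 of Arabidopsis thaliana were set against each other, each after division by the wild type Col-0. The comparison rests on 6 of the 12 RNA-sequencing libraries of the series, 3 of gun4-1 and 3 of gun5-1, with 3 libraries of Col-0 shared by both sides. The rule joined the authors' table of each mutant by transcript and kept, for each gene with an AGI locus code, the transcript with the highest mean level. This gave 37958 genes, of which 18348 had a valid test in both tables and 19610 did not. Values below cover the tested genes unless stated.

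All plants were whole seedlings of the Col-0 ecotype, 5 days after germination, on medium with 5 µM norflurazon in continuous light of 100 µE, per the labels. The groups were gun4-1, gun5-1 and wild type, and norflurazon was common to all of them, so no group shows an untreated seedling. The design text speaks of leaf RNA where the sample labels give whole seedlings, and a treatment text mentions piperonylic acid for gun5-1, which the treatment label of no library names. The design text calls the libraries biological triplicates. The authors' deposited tables hold 1 value per genotype, so the spread between libraries and the depth could not be read, and every error below comes from the authors' own test. The test between the mutants is therefore a normal approximation on those errors, since no exact test can be made without values per library. In these whole seedlings fewer cells of a type and less RNA per cell cannot be told apart.

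Magnesium chelatase inserts magnesium into protoporphyrin and so opens the chlorophyll branch of tetrapyrrole synthesis, while ferrochelatase inserts iron and opens the heme branch. The chelatase has the subunits CHLH, CHLD and CHLI. GUN5 is the H subunit, which binds the porphyrin, and GUN4 is a porphyrin-binding protein that stimulates the enzyme. Norflurazon blocks carotenoid synthesis, so plastids bleach in the light, and nuclear genes of photosynthesis are then switched down in the wild type. In gun (genomes uncoupled) mutants these genes stay more active. Both alleles change the protein rather than remove the transcript, so the level of the mutated gene checks neither label.

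Most genes of the light-harvesting, photosystem, Calvin cycle and photorespiration lists were called higher in gun5-1 than in gun4-1, 79 of 93. Of the 18348 genes, 378 were called higher in gun5-1 (2.06 percent), 132 were called lower (0.719 percent), and 510 were called in either direction (2.78 percent). A gene was called where the difference of its 2 log2 fold changes had a Benjamini-Hochberg adjusted p under 0.05 over all genes tested (a two-sided normal test on the authors' errors). The 378 genes had a median difference of 1.11 on the log2 scale, with median log2 fold changes against Col-0 of 0.24 in gun4-1 and 1.29 in gun5-1. The 132 genes had a median difference of -1.31, with medians of 0.21 in gun4-1 and -1.06 in gun5-1. The median difference of all genes tested was -0.01. The lists held 103 of the 378 genes and 3 of the 132. They cover 367 of the 37958 genes, tested or not, and their share of the tested genes was not counted. The lists were chosen with earlier results of these data known, so these counts are a description only.

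In each mutant's own comparison with Col-0, by the authors' q under 0.05, gun4-1 had 1561 genes higher (8.22 percent of 18990 tested) and 1123 lower (5.91 percent). In gun5-1, 3035 genes were higher (16.4 percent of 18550 tested) and 2433 were lower (13.1 percent). These comparisons share the Col-0 libraries.

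The count of differences depended on how the error was read from the tables. The authors' p-values correspond to errors smaller by a median ratio of 1.74 in each table than those of their test statistics, and the larger error was used. With errors from p, 1590 genes were called higher and 949 lower, and with a share of the error taken as that of the shared Col-0 libraries left out, 1042 were higher and 499 lower. Col-0 levels in the gun5-1 table were 0.916 times those in the gun4-1 table, so a ratio of the mutants with no division by Col-0 moves all genes by -0.13. On that scale 250 genes were called higher and 191 lower.

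**Figure D1:**
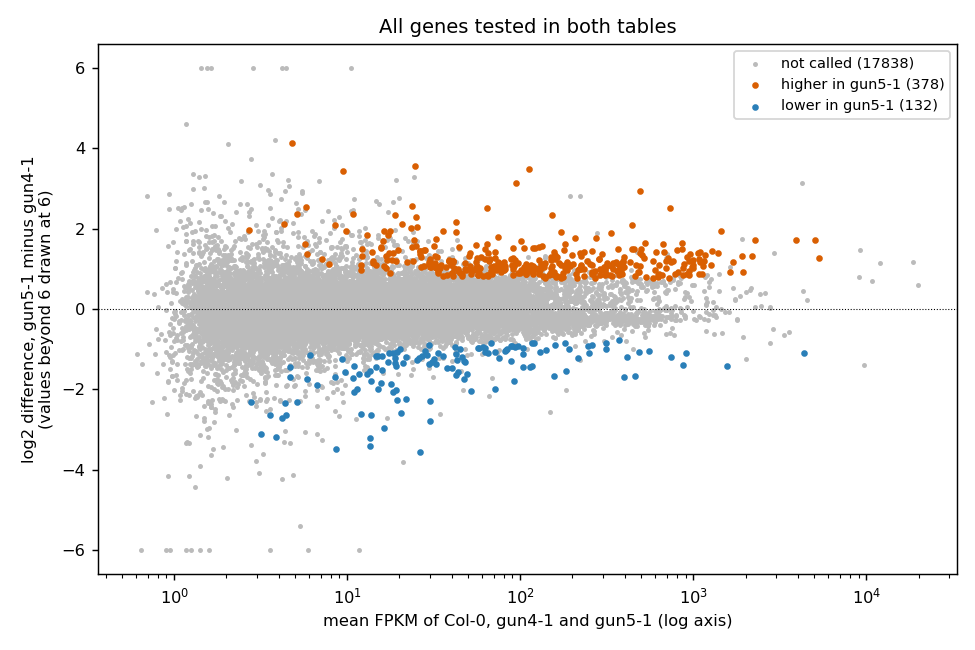
Difference of the log2 fold changes of gun5-1 and gun4-1 (vertical axis) against the mean FPKM of Col-0, gun4-1 and gun5-1 (horizontal log axis) for each of the 18348 genes tested, with 1 point per gene. Coloured points are the 378 genes called higher and the 132 called lower in gun5-1, called genes begin at a size of 0.76, and values beyond the axis limits are drawn at the limits.

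Levels are given as FPKM, fragments scaled by transcript length and by the mapped fragments of the library, on the scale of the gun4-1 table. Those of Col-0 and gun4-1 are the authors' values for the genotype. That of gun5-1 is the authors' fold change of gun5-1 applied to the Col-0 value of the gun4-1 table. The SE is that of a log2 value.

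Of the seed storage and maturation genes, 2 of 14 tested were called between the mutants, both higher in gun5-1. The summed level of 15 seed storage and maturation genes was 320.3 FPKM in Col-0, 22.3 in gun4-1 and 83.4 in gun5-1. Of the 14 tested, 13 had a difference above 0. The list's median difference was 1.68, and 1.05 with a pseudocount of 1 FPKM. SESA5, a seed storage albumin, was at 62.0, 0.929 and 11.04 FPKM (difference 3.57, SE 0.86, adjusted p of 0.00285), and with a pseudocount of 1 FPKM its difference was 2.65. SESA3, another albumin, was at 9.14, 1.62 and 17.55 FPKM (difference 3.44, SE 0.69, adjusted p of 0.00012). The other 12 had wide errors and were not called. The summed level of 10 root markers was 123, 108 and 102 FPKM in the same order. Of the 9 tested, 4 differences were above 0 and 5 below, from -0.60 to 0.38 with a median of -0.05. The largest in size were those of LRX1, a root hair cell wall protein, at -0.60 and PLT1, of the root meristem, at -0.51. The root list had 0 calls and 1 gene at an unadjusted p under 0.05. No marker of either list was at 0 in any group. The part of these tissues in the other differences was not tested.

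In the list of 5 genes that holds the magnesium chelatase subunits and GUN4, 2 subunit genes were called higher in gun5-1, one of them the gene mutated in it. CHLH (AT5G13630, chromosome 5, 4387307 to 4392429 in the deposited tables, whose build is not given in the sources) was at 207 FPKM in Col-0, 333 in gun4-1 and 746 in gun5-1. Its level in gun5-1 was 2.24 times that in gun4-1, a log2 difference of 1.16 (SE 0.27, adjusted p of 0.00162). CHLD, the subunit that joins the ATPase ring to the H subunit, was at 109, 136 and 242 FPKM in the same order. Its difference was 0.83 (SE 0.24, adjusted p of 0.0258). The ATPase subunits CHLI1 and CHLI2 were higher than Col-0 in both mutants by the authors' test, and their differences of 0.56 and 0.40 between the mutants were not called.

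GUN4 (AT3G59400, chromosome 3, 21948501 to 21959410) was listed at 2.21 FPKM in Col-0, 3.67 in gun4-1 and 4.21 in gun5-1. Its deposited span also holds AT3G59410, and neither mutant was called. The difference of 0.20 had a 95% interval from -3.19 to 3.59, so no change of GUN4 could be measured here.

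Of the 14 genes from aminolevulinate to protoporphyrin, 1 was called higher in gun5-1. That gene was HEMA1, the glutamyl-tRNA reductase of the first committed step, at 108 FPKM in Col-0, 153 in gun4-1 and 298 in gun5-1. Its difference was 0.97 (SE 0.24, adjusted p of 0.00386). The list's median difference was 0.47, with all 14 members above 0, and with errors from p 8 of the 14 were called higher. HEMC, the porphobilinogen deaminase, was well above Col-0 in both mutants, with log2 fold changes of 1.26 in gun4-1 and 1.72 in gun5-1, and its difference of 0.46 was not called.

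After the chelatase, 3 of the 9 tested genes of the chlorophyll branch were called higher in gun5-1, and 6 with errors from p. CRD1, a subunit of the cyclase that closes the fifth ring, differed by 0.85 (adjusted p of 0.0302). CHLP, the geranylgeranyl reductase that makes the phytyl tail, differed by 0.83 (adjusted p of 0.0292), and CHLG, the chlorophyll synthase that attaches it, by 0.81 (adjusted p of 0.0309). The protochlorophyllide reductases PORB and PORC did not differ past the threshold, at 43.9 and 44.9 FPKM for PORB and 26.9 and 29.2 for PORC, with differences of 0.03 (interval from -0.77 to 0.83) and 0.12 (from -0.85 to 1.09). PORA, the reductase of dark-grown seedlings, was under 1 FPKM in each group and untested.

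In the heme and bilin branch, 0 of 6 tested genes were called by this normal test, and 0 had an unadjusted p under 0.05. With errors from p, 1 was called higher, and without the Col-0 part of the error 0 were. The ferrochelatase FC2 was at 40.0 FPKM in Col-0, 45.8 in gun4-1 and 62.7 in gun5-1, and its difference of 0.45 had an interval from -0.05 to 0.96. FC1, the other ferrochelatase, was at 29.6, 27.3 and 24.7 FPKM, and its difference of -0.14 was not called. HO2, a heme oxygenase-like protein, differed by 0.54 (adjusted p of 0.881). With no division by Col-0 the calls of CHLD, CRD1, CHLP and CHLG were lost, with adjusted p from 0.111 to 0.130.

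**Figure D2:**
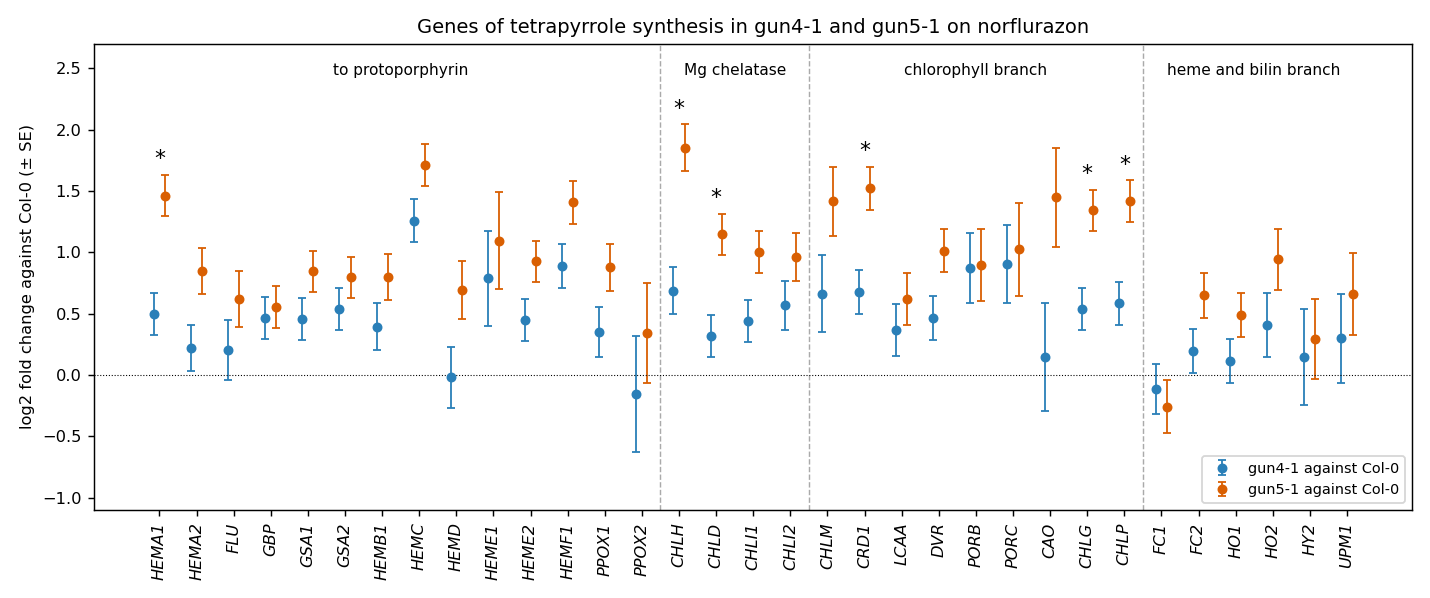
Log2 fold change against Col-0, ± SE, of the tested genes of tetrapyrrole synthesis other than GUN4 in pathway order, in gun4-1 (blue) and gun5-1 (orange), with each genotype's value from 3 libraries pooled by the authors. Stars mark the 6 genes called higher in gun5-1 than in gun4-1, which are HEMA1, CHLH, CHLD, CRD1, CHLG and CHLP.

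Genes of the light-harvesting antenna had the highest median difference of the 4 photosynthesis lists. Of 21 antenna genes, 18 were called higher in gun5-1 and none lower, with a median difference of 1.57. Their median log2 fold change against Col-0 was 1.19 in gun4-1 and 2.75 in gun5-1, and the summed level of the list was 3548 FPKM in Col-0, 9303 in gun4-1 and 28707 in gun5-1. The authors' test called 19 of the 21 higher in gun4-1 and 21 higher in gun5-1.

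LHCB1.1, a main protein of the trimeric antenna of photosystem II, was at 36.0 FPKM in Col-0, 321 in gun4-1 and 1827 in gun5-1. Its level in gun5-1 was 5.70 times that in gun4-1 (log2 difference 2.51, SE 0.27, adjusted p of 5.28e-17). LHCB2.3 was at 20.5, 72.8 and 366 FPKM, a difference of 2.33 (SE 0.39, adjusted p of 9.23e-07). LHCB1.2 was at 40.2, 244 and 1049 FPKM, a difference of 2.11 (SE 0.26, adjusted p of 3.9e-12). LHCB2.2, also of the trimer, was at 26.0, 102 and 386 FPKM, a difference of 1.92 (SE 0.28, adjusted p of 1.12e-08). The LHCB1 genes are near-identical copies, so the share of reads given to each is uncertain.

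Antenna genes differed among themselves as well. The photosystem I antenna genes LHCA1, LHCA2, LHCA3 and LHCA4 differed by 1.16 to 1.63. LHCB7 went below Col-0 in gun4-1 and above it in gun5-1, at 24.6 FPKM in Col-0, 17.7 in gun4-1 and 52.3 in gun5-1, and its difference was 1.57 (SE 0.31). The 3 members not called were LHCB1.4, LHCA5 and LHCB4.3. LHCB1.4 had the largest difference of the list, 2.77, but a level of 0.840 FPKM in Col-0 and an SE of 0.91.

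Of 32 genes of the photosystems and of electron transport, 30 were called higher in gun5-1 and none lower. The differences were close together, from 0.61 to 1.48 with a median of 1.18. PSAO, a small photosystem I subunit, was at 256 FPKM in Col-0, 569 in gun4-1 and 1583 in gun5-1 (difference 1.48, SE 0.24, adjusted p of 5.98e-07). PSBQ2, of the oxygen-evolving complex, was at 32.2, 119 and 317 FPKM (difference 1.42, SE 0.28, adjusted p of 5.99e-05). PETE1, a plastocyanin, was at 8.17, 20.0 and 55.7 FPKM (difference 1.48, SE 0.42, adjusted p of 0.019), and with no division by Col-0 its adjusted p was 0.0503. The members not called were PSAG, with a difference of 1.11 (adjusted p of 0.0717), and the ferredoxin FD1.

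In the Calvin cycle list, 18 of 26 genes were called higher in gun5-1 and none lower. CA1, the chloroplast carbonic anhydrase, was at 6.93 FPKM in Col-0, 169 in gun4-1 and 1288 in gun5-1. Both mutants were thus far above Col-0, and gun5-1 was 7.61 times gun4-1 (log2 difference 2.93, SE 0.40, adjusted p of 1.21e-09). CP12-2, which holds phosphoribulokinase and glyceraldehyde-3-phosphate dehydrogenase in an inactive complex in the dark, differed by 1.89 (SE 0.26). The Rubisco small subunit RBCS2B differed by 1.77 (SE 0.27). RBCS1A, the most abundant of the small subunit genes, was at 6684, 9182 and 20291 FPKM, yet its difference of 1.14 was not called (SE 0.45, adjusted p of 0.217). The small subunit genes are also near-identical in sequence. The 2 members below 0 were FBA3 at -0.10 and TKL2 at -0.76, neither of them called.

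In photorespiration, 13 of 14 genes were called higher in gun5-1, with a median difference of 1.199. Against Col-0 the authors called 7 of 14 higher in gun4-1, where the median log2 fold change was 0.29, and all 14 higher in gun5-1, where the median was 1.58. GLDP1, the P protein of glycine decarboxylase, was at 259 FPKM in Col-0, 287 in gun4-1 and 807 in gun5-1 (difference 1.49, SE 0.26, adjusted p of 5.33e-06). GGT1, a peroxisomal glutamate:glyoxylate aminotransferase, was at 591, 725 and 1944 FPKM (difference 1.42, SE 0.27, adjusted p of 4.41e-05). GLN2, the plastid glutamine synthetase that takes up photorespiratory ammonium, was at 66.1, 191 and 524 FPKM (difference 1.45, SE 0.41, adjusted p of 0.0168).

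**Figure D3:**
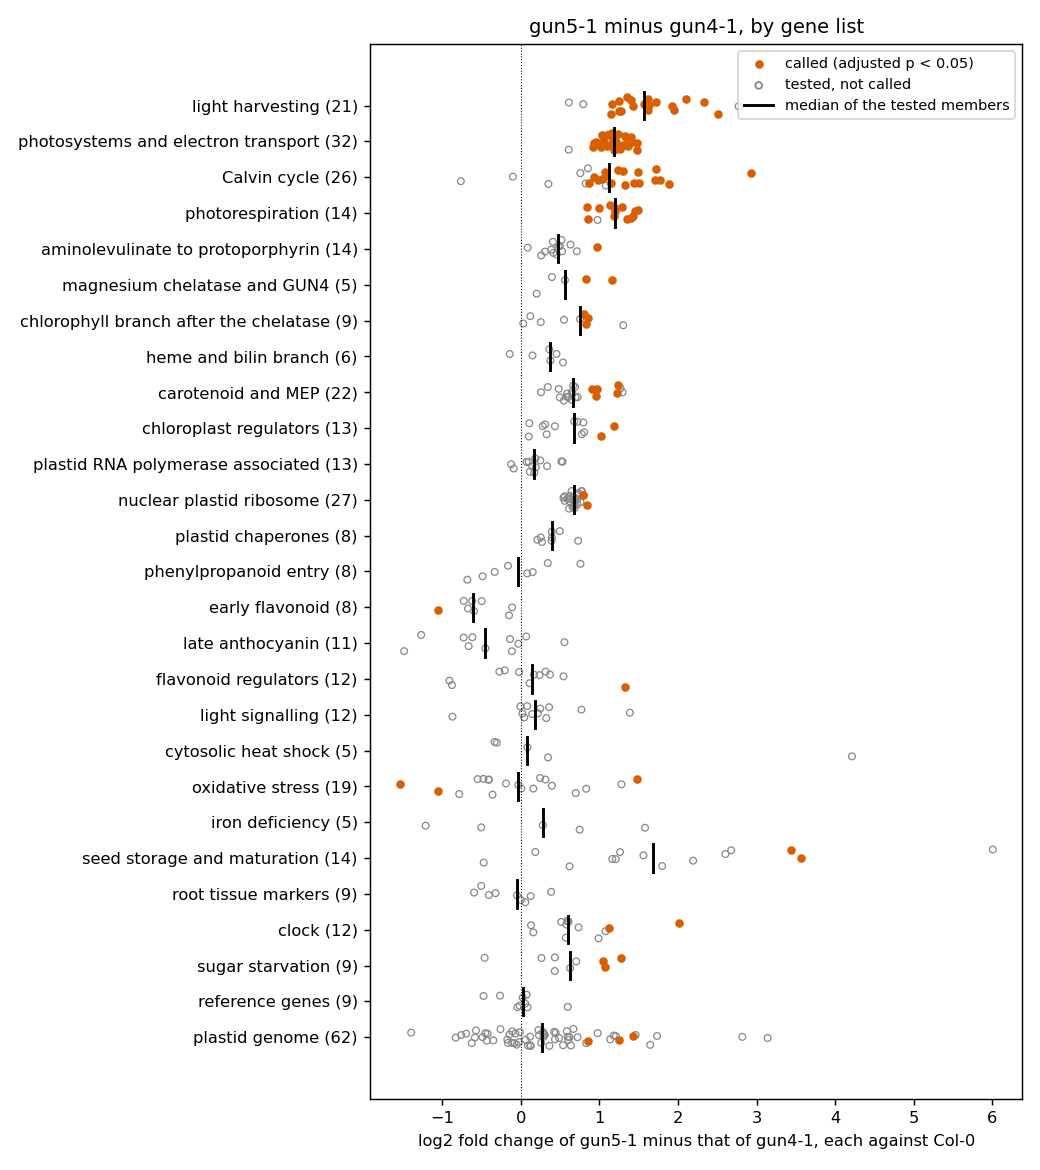
Difference of the log2 fold changes of gun5-1 and gun4-1 for the tested members of each gene list other than the mitochondrial genes, with 1 point per gene and the number tested in brackets. Filled points are called, open points are not, and the black bar is the list median, which is 1.57 for light harvesting, 1.18 for photosystems and electron transport and 0.02 for reference genes.

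Lists of other plastid functions had smaller median differences. In carotenoid and isoprenoid (MEP pathway) synthesis, 5 of 22 genes were called higher in gun5-1, and the median difference was 0.66 with all 22 above 0. With errors from p, 13 were called higher. The largest difference of the list, 1.29, was in a member that was not called. The called genes were BCH1, a beta-carotene hydroxylase, at 1.24, ZEP, the zeaxanthin epoxidase, at 1.23, LUT5, a carotene hydroxylase of lutein synthesis, at 0.97, and the MEP pathway enzymes DXS at 0.96 and HDS at 0.91. PDS, the phytoene desaturase that norflurazon inhibits, was at 38.5 FPKM in Col-0, 42.1 in gun4-1 and 65.8 in gun5-1, and its difference of 0.64 (SE 0.54) was not called. LUT5 and HDS lost their calls with no division by Col-0 (adjusted p of 0.121 and 0.0695).

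The 27 tested genes of nuclear-encoded plastid ribosomal proteins had differences from 0.54 to 0.84. Of these, PRPL12A (difference 0.84, adjusted p of 0.0245) and PRPL31 (0.80, adjusted p of 0.0465) were called, both just past the threshold, and with no division by Col-0 neither was (adjusted p of 0.105 and 0.172). With errors from p, or without the Col-0 part of the error, all 27 were called higher in gun5-1, as they were at an unadjusted p under 0.05. The authors called 25 of the 27 higher in gun4-1 and all 27 in gun5-1. The plastid chaperone list had a median difference of 0.39 over 8 genes with 0 calls, 2 genes at an unadjusted p under 0.05 and 3 called with errors from p. Its largest differences were 0.73 for CPN60B1, a chaperonin subunit that helps Rubisco fold, and 0.49 for CPHSC70-2, a stromal Hsp70, neither called.

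Among regulators of the chloroplast, the sigma factors SIG4 (difference 1.18, adjusted p of 0.0367) and SIG1 (1.02, adjusted p of 0.0054) were called higher in gun5-1, 2 of 13 members, against 7 with errors from p. Sigma factors guide the plastid-encoded RNA polymerase to its promoters. The call of SIG4 was lost with no division by Col-0 (adjusted p of 0.101). GLK1, a transcription factor that drives photosynthesis genes, was at 3.38 FPKM in Col-0, 4.87 in gun4-1 and 6.57 in gun5-1. Its difference of 0.43 had an interval from -0.57 to 1.44. Proteins that accompany the plastid-encoded RNA polymerase had a median difference of 0.17 over 13 genes with 0 calls and 1 gene at an unadjusted p under 0.05, and PTAC7 and PTAC14 had the largest values, 0.53 and 0.52, neither called.

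Many transcripts of the plastid genome were called higher than Col-0 in both mutants, 41 of 62 tested genes in gun4-1 and 48 in gun5-1. Of all 134 plastid genes these 62 were tested, and 3 were called higher in gun5-1 than in gun4-1 and 0 lower, against 13 higher and 2 lower with errors from p. Of the 62 differences, 39 were above 0 and 23 below. The median log2 fold change of the 62 was 1.62 in gun4-1 and 1.85 in gun5-1. The first of the 3 was ATCG00480, whose span also holds ATCG00470 and covers atpE and atpB in RefSeq's plastid genome, at 265 FPKM in Col-0, 481 in gun4-1 and 1289 in gun5-1 (difference 1.42, SE 0.27, adjusted p of 5.11e-05). The second was ndhK, for a subunit of the NAD(P)H dehydrogenase-like complex, at 41.5, 43.5 and 103 FPKM (difference 1.24, SE 0.32, adjusted p of 0.00838). The third, ycf1, was at 90.7, 302 and 548 FPKM (difference 0.86, adjusted p of 0.0379, and 0.139 with no division by Col-0). By contrast rbcL, the Rubisco large subunit, was at 14.3, 65.1 and 57.8 FPKM, and psbA, for the D1 protein, at 6.07, 29.2 and 20.8 FPKM, with no call between the mutants. The libraries were made from oligo(dT)-selected RNA per the labels, and most plastid transcripts carry no stable poly(A) tail, so these values describe the selected fraction.

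Of 161 mitochondrial genes, 9 were tested, and 1 was called lower, against 2 with errors from p. ATMG01390 was called lower in gun5-1, at 70.2 FPKM in Col-0, 203 in gun4-1 and 75.6 in gun5-1 (difference -1.43, SE 0.25, adjusted p of 5.21e-06). Its code was not matched to a gene name, and its values too describe only the oligo(dT)-selected fraction.

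**Figure D4:**
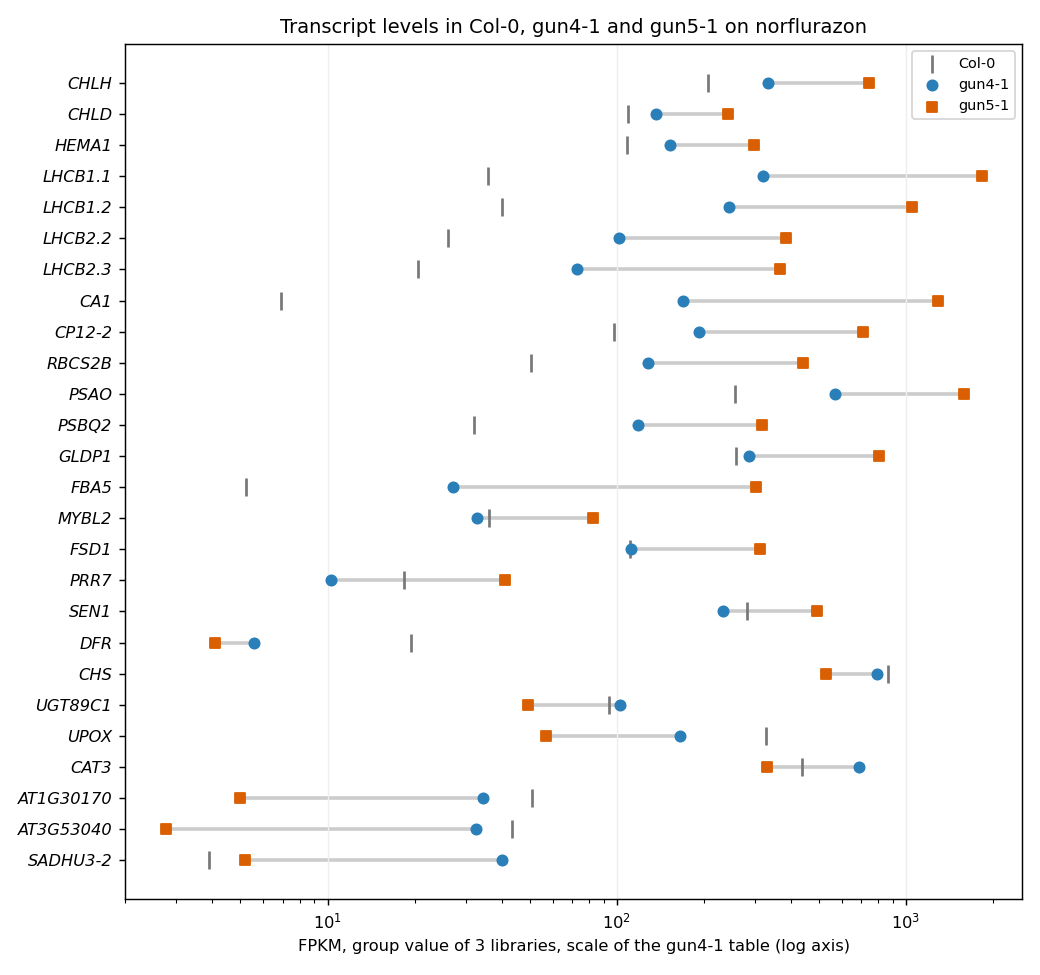
FPKM of Col-0 (grey tick), gun4-1 (blue circle) and gun5-1 (orange square) on a log axis for 26 genes. Each mark rests on the authors' value for 3 libraries, with gun5-1 brought to the scale of the gun4-1 table. In LHCB1.1 and CA1 gun4-1 lies between Col-0 and gun5-1, in GLDP1 and FSD1 gun4-1 lies near Col-0, and in AT1G30170 and AT3G53040 gun5-1 lies far below both.

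The flavonoid and anthocyanin pathway, the subject of the series title, had few calls between the mutants. In the late anthocyanin list 0 of 11 genes were called by this normal test, and 0 had an unadjusted p under 0.05 or were called with either other error. Against Col-0 the authors called 5 of the 11 lower in gun4-1 and 8 in gun5-1. The list's median log2 fold change was -0.80 in gun4-1 and -1.53 in gun5-1, and its median difference -0.45. DFR, the dihydroflavonol reductase, was at 19.4 FPKM in Col-0, 5.58 in gun4-1 and 4.08 in gun5-1, and its difference of -0.45 had an interval from -1.29 to 0.39. LDOX, the anthocyanidin synthase, was at 17.2, 4.91 and 4.80 FPKM, and its difference of -0.03 had an interval from -2.34 to 2.28. The largest differences were those of GSTF12 (TT19), a transferase needed for anthocyanin storage, at -1.49 (SE 0.97), and of SCPL10, an acyltransferase, at -1.27 (SE 0.67).

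In the early flavonoid list 8 of 8 differences were below 0, with a median of -0.61, 1 call, and 5 calls with errors from p. UGT89C1, a rhamnosyltransferase of flavonols, was at 94.2 FPKM in Col-0, 102 in gun4-1 and 49.3 in gun5-1 (difference -1.06, SE 0.25, adjusted p of 0.00203). CHS, the chalcone synthase, was at 869, 797 and 527 FPKM. It was lower than Col-0 in gun5-1 by the authors' test but not in gun4-1, and its difference of -0.60 between the mutants had an interval from -1.13 to -0.06 and an adjusted p of 0.399.

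Of 12 tested flavonoid regulators, 1 was called, with 7 differences above 0, 5 below and a median of 0.14, and with errors from p 2 were called higher. The called gene, MYBL2, a repressor of anthocyanin genes, was at 36.2 FPKM in Col-0, 32.9 in gun4-1 and 82.5 in gun5-1 (difference 1.33, SE 0.28, adjusted p of 0.000362). PAP1, an activator called lower than Col-0 in both mutants, was at 4.28, 1.45 and 0.790 FPKM, and its difference of -0.88 was not called. The phenylpropanoid list, which feeds the pathway, had 0 calls, 3 genes at an unadjusted p under 0.05 and values on both sides of 0, with 4CL1 at 0.76 and 4CL3 at -0.68, neither called.

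Light signalling genes had a median difference of 0.18 over 12 genes, with 0 calls, 0 genes at an unadjusted p under 0.05 and 0 calls with either other error. PIF4 and PIF3, phytochrome-interacting factors, had the largest values at 1.39 and -0.87, with SE of 2.62 and 0.96. Of 12 clock genes all were above 0, and PRR7 and GI were called higher, against 6 genes with errors from p. PRR7, a repressor of the morning genes, was at 18.4 FPKM in Col-0, 10.3 in gun4-1 and 41.2 in gun5-1 (difference 2.01, SE 0.43, adjusted p of 0.000429). GI, which acts in the evening, was at 6.09, 5.43 and 11.8 FPKM (difference 1.12, SE 0.30, adjusted p of 0.0106). The hour of harvest is not given in the labels.

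Genes of the carbon starvation list had a median difference of 0.63, with 3 of 9 called higher, against 5 with errors from p. ASN1, an asparagine synthetase of dark and starved leaves, was at 233 FPKM in Col-0, 221 in gun4-1 and 457 in gun5-1 (difference 1.05, SE 0.26, adjusted p of 0.00368). SEN1 was at 281, 233 and 491 FPKM (difference 1.07, SE 0.28, adjusted p of 0.00744). BCAT2, a branched-chain aminotransferase, was at 70.5, 42.2 and 102 FPKM (difference 1.27, SE 0.38, adjusted p of 0.035, and 0.0936 with no division by Col-0).

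Of the oxidative stress genes, 1 was called higher and 2 lower, against 4 and 4 with errors from p. FSD1, an iron superoxide dismutase, was at 111 FPKM in Col-0, 112 in gun4-1 and 313 in gun5-1 (difference 1.48, SE 0.37, adjusted p of 0.0049). UPOX, a mitochondrial protein whose transcript rises under oxidative stress, fell against Col-0 in both mutants and further in gun5-1, at 328, 166 and 57.1 FPKM (difference -1.54, SE 0.26, adjusted p of 2.29e-06). The catalase CAT3 was at 437, 690 and 331 FPKM (difference -1.06, SE 0.26, adjusted p of 0.00355). The remaining 16 tested members were not called. The ferritin FER1 was lower than Col-0 in both mutants, at 1073, 415 and 417 FPKM, and its difference had an interval from -0.57 to 0.58.

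Of the 5 tested cytosolic heat shock genes, 0 were called between the mutants by any of the errors, and 0 had an unadjusted p under 0.05. HSP70 (AT3G12580), called lower than Col-0 in both mutants, was at 45.5 FPKM in Col-0, 11.8 in gun4-1 and 9.37 in gun5-1, with a difference of -0.34 and an interval from -0.89 to 0.22. HSP17.6A and HSP17.8, small heat shock proteins, had the largest values of the list, 4.21 and 0.35, with SE of 5.20 and 1.55. Of the iron deficiency list 5 of 11 genes were tested, with 0 at an unadjusted p under 0.05 and 1 called with errors from p, and FRO3, a ferric reductase (1.58), and PYE, a transcription factor (-1.21), had the largest values, neither called. Reference genes had a median difference of 0.02 over 9 genes, with 0 calls and 2 genes at an unadjusted p under 0.05, and their extremes were the actins ACT2 at 0.60 and ACT7 at -0.48, neither called.

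The 10 genes called higher with the largest differences at a mean of at least 5 FPKM came from photosynthesis and from other functions. They included SESA5, SESA3, CA1 and LHCB1.1, described above. FBA5, a fructose-bisphosphate aldolase (chromosome 4, 13380153 to 13393265, a span with 5 other genes), was at 5.22 FPKM in Col-0, 27.2 in gun4-1 and 302 in gun5-1 (difference 3.48, SE 1.00, adjusted p of 0.0233). AT2G01422, a non-coding RNA on chromosome 2 (183940 to 184734), was at 135 FPKM in Col-0, 15.0 in gun4-1 and 131 in gun5-1. By the authors' test it was lower than Col-0 in gun4-1 and not called in gun5-1 (difference 3.13, SE 0.31, adjusted p of 3.3e-19). The defensin LCR67 (PDF1.1) was below Col-0 in both mutants and lowest in gun4-1, at 141, 7.81 and 44.5 FPKM (difference 2.51, SE 0.61). The others were AT3G57470, an insulinase-family peptidase, AT4G16680, annotated as an RNA helicase, and TGG2, a myrosinase, with differences from 2.37 to 2.58. The span of AT4G16680 also holds AT4G06410, AT4G06415 and AT4G16670.

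The 10 genes called lower with the largest differences included several genes of little-known function. AT3G53040, annotated as a late embryogenesis abundant protein (chromosome 3, 19664629 to 19666497), was at 43.4 FPKM in Col-0, 32.5 in gun4-1 and 2.76 in gun5-1 (difference -3.56, SE 0.39, adjusted p of 6.69e-16). AT1G30170, with a domain of unknown function (chromosome 1, 10606159 to 10609618), was at 50.8, 34.5 and 4.97 FPKM (difference -2.80, SE 0.40, adjusted p of 3.19e-09). Its deposited span also holds AT1G30160. AT5G03495, an RNA-binding protein, was at 32.5, 24.9 and 4.17 FPKM (difference -2.58, SE 0.39). In AT3G53040, AT1G30170, AT5G03495, AT4G22960, AT5G55270 and AT3G54520 gun4-1 was called lower than Col-0 by the authors, and gun5-1 lower still. The span of AT3G54520 also holds AT3G54510.

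SADHU3-2, a non-coding retrotransposon, differed in another way. It was at 3.89 FPKM in Col-0, 40.0 in gun4-1 and 5.17 in gun5-1, so gun4-1 stood apart (difference -2.95, SE 0.65, adjusted p of 0.000834). NAC010, a NAC transcription factor, was at 7.87, 6.29 and 1.26 FPKM (difference -2.32, SE 0.61, and -1.65 with a pseudocount of 1 FPKM). AT1G43605 and the non-coding AT1G07167 lie in the same deposited span on chromosome 1 (16415357 to 16417928) and are given with the genes of opposite direction.

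Some genes were called in opposite directions by the authors, above Col-0 in one mutant and below it in the other. NIT4, a nitrilase of cyanide detoxification, was at 2.58 FPKM in Col-0, 0.631 in gun4-1 and 11.1 in gun5-1 (difference 4.14, SE 1.09, adjusted p of 0.0092). Its difference was 2.13 with transcripts summed and 2.87 with a pseudocount of 1 FPKM. SCPL13, a serine carboxypeptidase-like protein, was at 9.24, 3.78 and 19.4 FPKM (difference 2.36, SE 0.55, adjusted p of 0.00187). AT4G13495, a non-coding RNA, was at 13.4, 7.02 and 35.9 FPKM (difference 2.35, SE 0.49, adjusted p of 0.000294). Its span also holds AT4G13493 and AT4G13494. AT3G57470 was at 23.9, 6.80 and 40.5 FPKM (difference 2.58, SE 0.72, adjusted p of 0.0172), and its difference was 1.85 with transcripts summed.

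The reverse pattern, higher in gun4-1, was seen in AT1G43605, at 7.91 FPKM in Col-0, 16.4 in gun4-1 and 1.47 in gun5-1 (difference -3.48, SE 0.76), and in AT1G07167, at 10.95, 26.7 and 2.90 FPKM (difference -3.20, SE 0.77). The non-coding AT1G07187 had opposite calls but a difference of 2.43 that was not called (SE 0.77, adjusted p of 0.0527). Among the genes already described, SESA3, PRR7, LHCB7, BCAT2 and CAT3 also had opposite calls. LHCB7 was picked out after its values were seen.

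**Figure D5:**
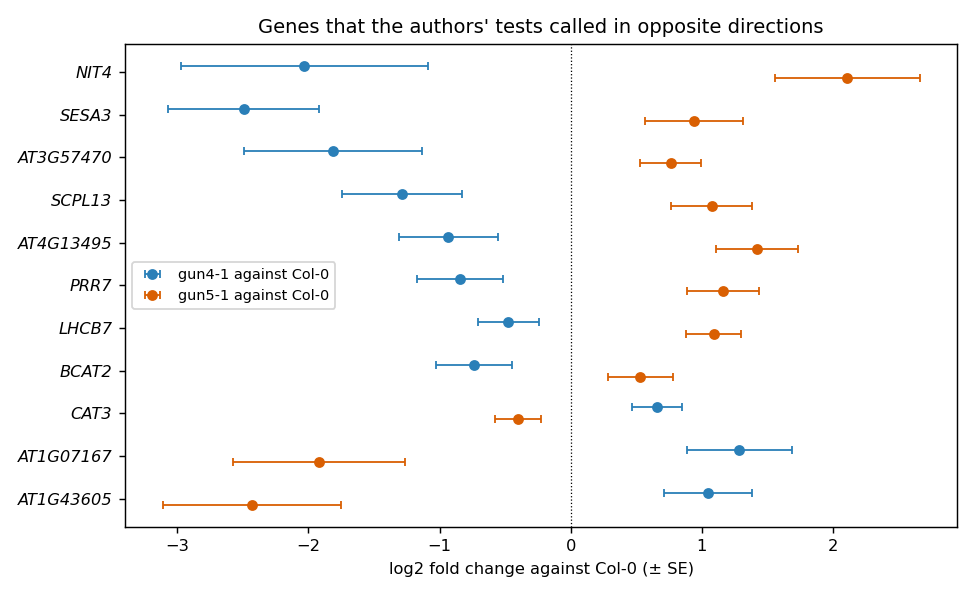
Log2 fold change against Col-0, ± SE, in gun4-1 (blue) and gun5-1 (orange) of 11 genes. These are the named genes and list members that the authors' tests called in opposite directions and whose difference between the mutants was called. Other genes are not drawn. In 8 genes gun4-1 lies below 0 and gun5-1 above it, and in CAT3, AT1G07167 and AT1G43605 the order is reversed.

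The called genes were spread over the genome. The share called higher was 2.41 percent of the genes tested on chromosome 1, 1.71 on chromosome 2, 1.97 on chromosome 3, 2.36 on chromosome 4 and 1.75 on chromosome 5. The share called lower lay between 0.519 percent on chromosome 3 and 0.870 percent on chromosome 4.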

How the data were processed

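RNA of 3 libraries each of Col-0, gun4-1 and gun5-1 was sequenced. Per the submitters' processing notes, Trimmomatic, TopHat, Cufflinks and Cuffdiff were used. The sources used here give no versions, genome build or annotation. The authors deposited, for each mutant against Col-0, group FPKM values, log2 fold changes, a test score (Cuffdiff's statistic), p-values and q-values, per the file headers. The tables list 64480 transcripts. Depth is unknown, and the p-values rest on the authors' pooling of 3 libraries.

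From these, for each AGI code the transcript of highest mean FPKM was kept, and 135 names without such a code were left out. The SE of a log2 fold change was the larger of its ratio to the statistic and its ratio to the normal quantile of p, where p was above its floor of 5e-05. Subtracting the gun4-1 from the gun5-1 log2 fold change and dividing by the joint SE gave a z value, its normal p (two-sided) was adjusted by Benjamini-Hochberg over 18348 genes (Python 3.11.15, scipy 1.17.1), and no exact test is possible without values per library. The Col-0 error enters on both sides although its libraries are shared. The calculation was run on simulated fold changes drawn as normal with these same errors, which cannot check the errors or the normal approximation. Coordinates come from the deposited tables, with starts counted from 1, and a span may hold several overlapping genes. Names come from hand-written lists and from RefSeq (TAIR10.1), and 52 of the 62 tested plastid genes were named by an identical span.

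The comparison, the 26 lists of 367 genes and the rule for named genes were chosen with earlier results of these data known. The rule took the chelatase genes, in each list the 3 called genes with the largest difference or 2 where none was called, the 10 highest and 10 lowest called genes with a mean of at least 5 FPKM, the 8 largest differences among genes called in opposite directions, and 12 marker genes. Other list members were named after their values were seen. A planned search of promoters for motifs was not run. Lists were described by counts and medians, with no list test. Alternatives were other errors, no division by Col-0, centring, a minimum of 5 FPKM, genes with 1 transcript, summed transcripts, a pseudocount of 1, and a threshold of 0.01.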

Additional observations from a re-analysis of the deposited data

Results flagged for a closer look

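The genes below were called by the authors in opposite directions in gun4-1 and gun5-1, and the difference itself passed the test. They were taken from the named genes and list members only, so their split by direction is not that of all genes. Of the 378 genes called higher, the authors called 61 lower in gun4-1 and 355 higher in gun5-1. Of the 132 called lower, they called 52 higher in gun4-1 and 120 lower in gun5-1. Genes without such opposite calls, including genes called against Col-0 in a single mutant, are described in the body of the report. The differences of the log2 fold changes, gun5-1 minus gun4-1, were 4.14 for NIT4, 3.44 for SESA3, 2.58 for AT3G57470, 2.36 for SCPL13, 2.35 for AT4G13495, 2.01 for PRR7, 1.57 for LHCB7 and 1.27 for BCAT2. They were -1.06 for CAT3, -3.20 for AT1G07167 and -3.48 for AT1G43605. NIT4 was under 3 FPKM in Col-0 and in gun4-1, and its difference was 2.13 when the FPKM of its 2 listed transcripts were summed. That of AT3G57470, with 7 listed transcripts, was then 1.85.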

How the results depend on the processing

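The count of genes called higher in gun5-1, 378, became 1590 with errors from the deposited p, 1042 without the Col-0 part of the error, 250 with no division by Col-0, 230 among genes with 1 listed transcript and 230 at a threshold of 0.01. The count called lower, 132, became 949, 499 and 80 with errors from p, without the Col-0 part and at 0.01. Errors from the statistic, centring, a minimum of 5 FPKM and leaving out 16 genes whose statistic disagrees with its p kept both counts within 1.5 times. Of the 510 genes called, 382 were also called with no division by Col-0 and 510 with errors from p. Genes with 1 listed transcript are fewer, so 8 Calvin cycle, 4 photorespiration and 2 carotenoid genes were then called higher, and 3 carotenoid genes were with no division by Col-0, which shifts every difference down. List medians stayed within the median SE of their members in each alternative run. With no division by Col-0, 11 of 92 named genes lost their call and none reversed. With a pseudocount of 1 FPKM, 6 named genes moved by more than their SE, and with summed transcripts 2 did. The authors' own counts stayed within 1.5 times under a minimum of 5 FPKM, an alternative added after the data were seen. No paired analysis was possible because the deposited tables hold 1 value per genotype, so no replicate block and no leave-one-out fit could be made. The median SE of a difference was 0.44, and differences called in the main test began at 0.76. With the smaller errors, differences below that size were called too, among them plastid ribosome genes.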

Other observations

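A list of 18 genes of the DNA damage response was drawn up after values were seen, so its counts are a description only. They are partly set by that choice and are no result for the response as a whole. Of 16 tested members all had a difference, gun5-1 minus gun4-1, below 0, with a median of -1.50. In this list 6 were called lower, beside 0.719 percent of all genes tested. The other 10 were not called, some of them with wide errors, such as SMR5 (SE 2.53). SMR7, a cyclin-dependent kinase inhibitor induced by DNA damage, was at 49.6 FPKM in Col-0, 33.2 in gun4-1 and 6.83 in gun5-1 (difference -2.28, SE 0.48). CYCB1;1, a mitotic cyclin that also rises after DNA damage, was at 11.4, 10.8 and 3.33 FPKM (difference -1.70, SE 0.43). BRCA1, a repair gene, was at 5.17, 6.47 and 2.37 FPKM (difference -1.45, SE 0.39).

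The NAC transcription factors NAC044 and NAC103 were called as well, at -1.79 and -1.98. TIM17-1, a mitochondrial import protein, differed by -2.07. SOG1, the transcription factor that governs this response, was at 7.38, 8.10 and 7.43 FPKM, and its difference of -0.12 was not called.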
